A study of Mus musculus with 9 samples.

Results

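Melanocytes make melanin and hand it to keratinocytes, and 9 genes that mark this lineage were followed here in mouse skin that had lost the transcription elongation factor SPT6 from its basal keratinocytes. The genes were chosen by name, with earlier results of these data known, and each was found in the table by its NCBI gene identifier: *Pmel*, *Tyr*, *Tyrp1*, *Dct*, *Mlana*, *Mitf*, *Sox10*, *Slc45a2* and *Oca2*, that is 9 of the 17943 genes in the table. All 9 passed the filter on low counts. Bulk RNA-Seq libraries came from 5 control mice, labelled Wild-type (genotype WT), and 4 *Supt6*-KO mice, labelled Supt6 KO (genotype Supt6 knockdown), taken on day 10 after the last injection. By the study's methods, the *Supt6*-KO mice were K14-CreERT; *Supt6* fl/fl and received tamoxifen, whereas the controls were *Supt6* fl/fl without Cre and received corn oil, so Cre, tamoxifen and the deletion cannot be told apart. The floxed alleles were thus common to all 9 mice. The labels carry the same treatment text for both groups, so the difference in injection is taken from the methods alone. The K14 promoter drives Cre in basal keratinocytes and not in melanocytes, and the libraries hold RNA of whole skin, not of sorted cells. The labels name ear as the tissue and the methods dorsal skin, and neither gives an age in days. The libraries held 29627341 to 30491197 counts per control mouse and 30597189 to 30967107 per *Supt6*-KO mouse, and 3 counts in a library were taken as the floor. *Supt6*-KO mouse 4 stood apart from the rest of its group: the chi-square per degree of freedom between its counts and those of each other *Supt6*-KO mouse was 259 to 431, against 32.6 to 74.6 among the other *Supt6*-KO mice and 21.5 to 130 among the controls.

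Melanin is built in melanosomes, organelles related to lysosomes. PMEL forms the fibrils on which pigment is laid down, and the enzymes tyrosinase (TYR), TYRP1 and DCT turn tyrosine into melanin. MLANA, SLC45A2 and OCA2 are melanosomal membrane proteins, the last of them linked to the ion balance and pH of the organelle. MITF is the transcription factor that governs this program, and SOX10, a factor of neural crest cells, acts upstream of it and is also active in Schwann cells. In skin, these cells sit in the hair follicle and, in thinly haired sites, between follicles.

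On counts scaled with TMM factors, that is relative to the bulk of the transcriptome, most genes for pigment production were higher in *Supt6*-KO skin and *Sox10* was lower. On that scale 5 of the 9 genes were called higher in *Supt6*-KO skin (*Tyr*, *Dct*, *Mlana*, *Tyrp1* and *Slc45a2*), 1 was called lower (*Sox10*) and 3 were not called (*Pmel*, *Oca2* and *Mitf*). With library totals in place of TMM factors, 1 was called higher (*Tyr*) and 2 lower (*Sox10* and *Mitf*), against 1470 and 6802 of the 16426 genes tested. Without *Supt6*-KO mouse 4, 4 were called higher and 1 lower, since *Tyrp1* came to a log2 fold change of 0.97. The others then stood at 2.27 (*Tyr*), 1.64 (*Dct*), 1.64 (*Mlana*), 1.02 (*Slc45a2*), 0.64 (*Pmel*), 0.81 (*Oca2*, adjusted p = 0.044), -0.46 (*Mitf*) and -2.71 (*Sox10*). A call means at least a 2-fold change and a Benjamini-Hochberg adjusted p under 0.05 in edgeR's quasi-likelihood test over the 16426 genes tested. At that rule 20.9% of all genes were called higher and 24.9% lower, so changes are frequent in this comparison. By the adjusted p alone 6 of the 9 genes were higher, against 34.1% of all genes, and 2 were lower, against 36.8%. The median log2 fold change of *Supt6*-KO against control (log2FC) was 1.13 over the 9 genes and -0.072 over all genes tested. For 6 of the 9 genes every *Supt6*-KO mouse lay above every control mouse in CPM (counts scaled to the library's effective size with TMM factors), which held for 28.9% of all genes, and for 1 gene every *Supt6*-KO mouse lay below, which held for 31.8%. Nothing is known from these libraries about the number of cells: in bulk skin, more melanocytes and more RNA per melanocyte cannot be told apart, nor can fewer cells and less RNA per cell for a gene that fell.

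**Figure D1:**
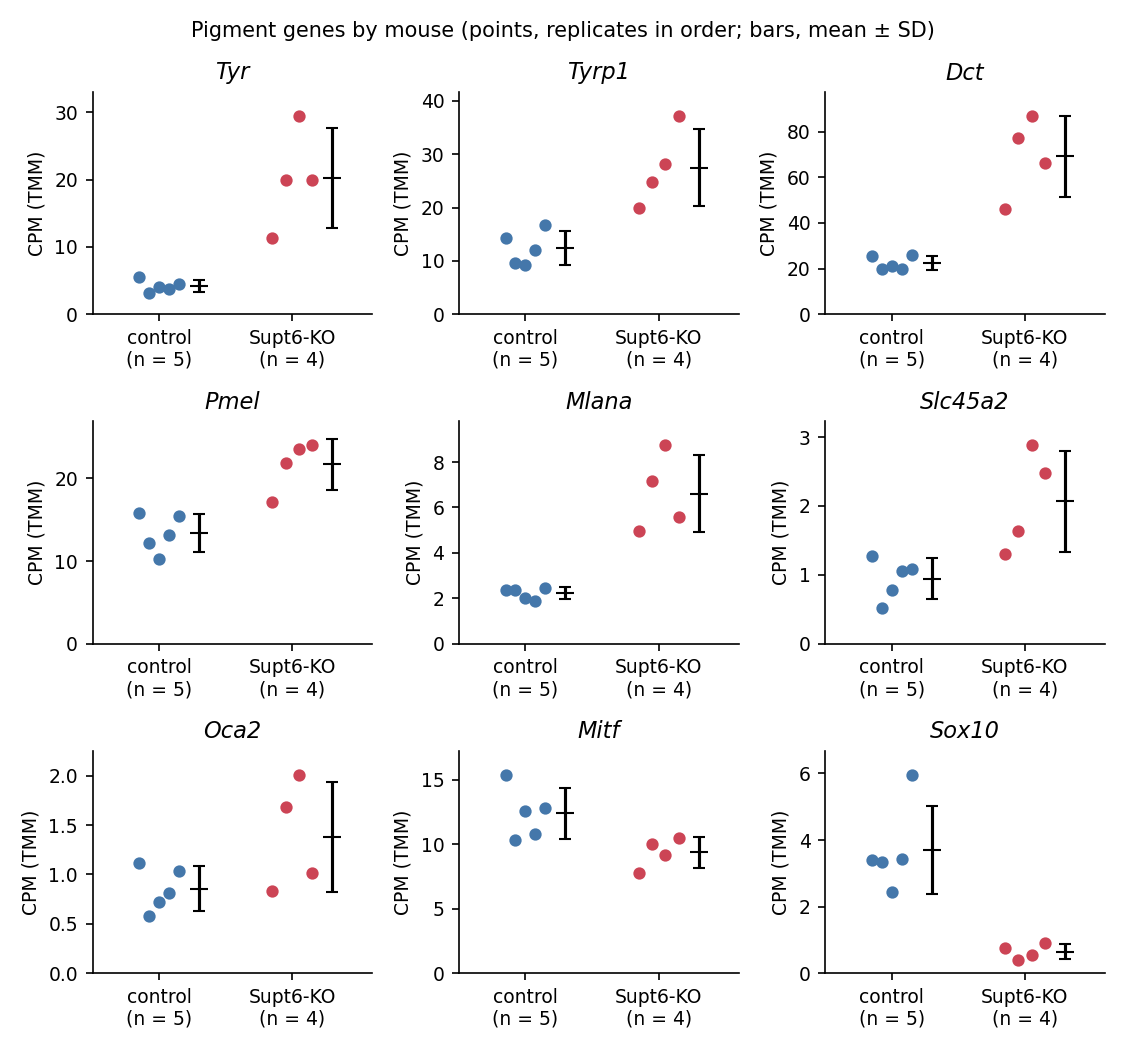
CPM scaled with TMM factors (vertical axes, each starting at 0) of the 9 genes in 5 control mice (blue) and 4 *Supt6*-KO mice (red), with the mean and SD beside the points. *Tyr*, *Tyrp1*, *Dct*, *Pmel*, *Mlana* and *Slc45a2* lie above every control in every *Supt6*-KO mouse, and *Sox10* lies below.

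The targeted gene was read first as a check of the labels. *Supt6* stood at 74.5, 56.6, 63.6, 91.1 and 96.7 CPM in the controls and at 28.6, 24.1, 21.9 and 28.4 CPM in the *Supt6*-KO mice. No *Supt6*-KO mouse reached the lowest control, with a log2FC of -1.57 (standard error, SE, 0.18; adjusted p = 1.3e-05).

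On TMM-scaled counts the genes of all 3 enzymes of the tyrosinase family were called higher. With library totals *Tyr* and *Dct* still passed the adjusted threshold as higher, and *Tyrp1* did not (log2FC 0.47). *Tyr* (NCBI gene 22173, chromosome 7, 87424771 to 87493512 in GRCm38) encodes the rate-limiting enzyme of melanin synthesis. It stood at 5.59, 3.12, 4.01, 3.76 and 4.51 CPM in the controls and at 11.4, 20, 29.5 and 20 CPM in the *Supt6*-KO mice. The lowest *Supt6*-KO mouse was thus well above the highest control, and the *Supt6*-KO mice spread more widely than the controls, with mouse 1 lowest and mouse 3 highest. This was a 4.82-fold rise in the group means fitted by edgeR (log2FC 2.27, SE 0.26, adjusted p = 1.4e-05), the largest of the 9 genes.

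*Dct* (NCBI gene 13190, chromosome 14, 118012790 to 118052246) encodes dopachrome tautomerase, which acts downstream of tyrosinase on the way to brown-black eumelanin. Its values were 25.5, 19.8, 21.2, 19.6 and 26.0 CPM in the controls and 46.2, 77.4, 87.0 and 66.1 CPM in the *Supt6*-KO mice. The groups did not overlap, and the order of the *Supt6*-KO mice had mouse 1 lowest and mouse 3 highest again. The rise was 3.09-fold (log2FC 1.63, SE 0.18, adjusted p = 1.1e-05). *Tyrp1* (NCBI gene 22178, chromosome 4, 80834123 to 80851736), whose product also takes part in eumelanin synthesis, had 14.2, 9.53, 9.14, 12.1 and 16.8 CPM in the controls and 19.9, 24.8, 28.1 and 37.2 CPM in the *Supt6*-KO mice. Here mouse 4 was the highest, and the gap between the groups was narrower (2.23-fold, log2FC 1.15, SE 0.22, adjusted p = 0.00064).

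Promoter windows from RefSeq were used for 5 of the 9 genes (7 windows, since *Mitf* has 3), each reaching from 250 bases before to 50 after a transcript start. The windows of the 3 enzyme genes are shown because these genes were all called higher on TMM-scaled counts and share a word. Each holds TCATGTGCT, the core of the M-box, an element known from promoters of this enzyme family and bound by MITF. On either strand this word is in 134 of 32851 promoter windows (0.408%), and in 3 of the 7 windows here. It begins 22 bases before the start of *Tyr*, 47 before *Tyrp1* and 151 before *Dct*, each time on the strand of the gene. The start used for *Tyrp1* is that of a transcript that begins inside the gene's span given above, so the word lies within that span. The windows lie at chr7:87493463-87493762 on the reverse strand, chr4:80833963-80834262 on the forward strand and chr14:118052197-118052496 on the reverse strand of GRCm38.p6, and are written from 5′ to 3′ along the gene with the shared word in capitals.
Tyr: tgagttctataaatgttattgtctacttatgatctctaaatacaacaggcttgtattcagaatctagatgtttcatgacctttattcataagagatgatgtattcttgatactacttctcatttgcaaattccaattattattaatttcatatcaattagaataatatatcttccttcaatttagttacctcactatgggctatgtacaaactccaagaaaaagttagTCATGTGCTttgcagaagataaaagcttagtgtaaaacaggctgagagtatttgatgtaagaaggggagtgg
Tyrp1: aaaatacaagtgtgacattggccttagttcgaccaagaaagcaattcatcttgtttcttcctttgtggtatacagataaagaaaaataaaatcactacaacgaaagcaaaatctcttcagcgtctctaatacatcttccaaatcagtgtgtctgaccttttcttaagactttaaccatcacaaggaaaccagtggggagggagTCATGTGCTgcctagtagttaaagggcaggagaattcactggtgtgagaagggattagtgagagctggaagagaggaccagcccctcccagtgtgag
Dct: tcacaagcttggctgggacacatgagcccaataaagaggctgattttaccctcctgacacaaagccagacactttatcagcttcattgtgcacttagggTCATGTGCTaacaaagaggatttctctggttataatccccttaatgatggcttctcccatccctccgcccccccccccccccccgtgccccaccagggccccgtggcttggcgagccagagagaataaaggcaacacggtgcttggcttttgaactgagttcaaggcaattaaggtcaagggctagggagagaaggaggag
The shorter E-box CATGTG, which lies inside that word, was found on either strand in 4 of the 7 windows and in 14.2% of all windows, and ACAAAG, a word known from sites of SOX factors, in 3 of the 7 and in 18.7%. A match describes the letters only. These data hold no measurement of binding, and gene counts do not show which promoter of *Mitf* was in use.

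Of the genes for melanosome structure and membrane, *Mlana* and *Slc45a2* were called higher, and *Pmel* and *Oca2* were not called. *Mlana* (NCBI gene 77836, chromosome 19, 29697541 to 29708447) stood at 2.38, 2.38, 2.02, 1.87 and 2.44 CPM in the controls and at 4.97, 7.15, 8.74 and 5.57 CPM in the *Supt6*-KO mice. The controls were closely grouped and each *Supt6*-KO mouse was above them all (2.97-fold, log2FC 1.57, SE 0.20, adjusted p = 3.2e-05). *Slc45a2* (NCBI gene 22293, chromosome 15, 11000721 to 11029233) was far less abundant in counts, at 1.28, 0.52, 0.775, 1.05 and 1.09 CPM against 1.3, 1.63, 2.88 and 2.48 CPM. The groups are separated only just, since *Supt6*-KO mouse 1 with 31 counts lies next to control 1 with 48 counts in the larger effective library (log2FC 1.13, SE 0.31, adjusted p = 0.0072).

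*Pmel* (NCBI gene 20431, chromosome 10, 128695888 to 128720238) had 15.8, 12.2, 10.3, 13.2 and 15.4 CPM in the controls and 17.2, 21.9, 23.5 and 24 CPM in the *Supt6*-KO mice. It was higher in every *Supt6*-KO mouse and passed the adjusted threshold at 1.62-fold, short of a call (log2FC 0.70, SE 0.16, adjusted p = 0.0021). Its RefSeq span overlaps that of *Cdk2*, a cell cycle kinase gene, by 7114 bases, and *Cdk2* had a log2FC of 0.65 (adjusted p = 0.00084). Whether reads were assigned by strand is not given in the sources used here, so the counts of *Pmel* and *Cdk2* are uncertain where they overlap. *Oca2* (NCBI gene 18431, chromosome 7, 56239593 to 56536518) was read with 42, 21, 26, 30 and 41 counts in the control mice and 20, 35, 44 and 28 in the *Supt6*-KO mice, or 0.855 ± 0.227 CPM (SD, n = 5) against 1.38 ± 0.556 CPM (SD, n = 4). The groups overlapped and the difference did not pass the threshold (log2FC 0.68, SE 0.32, adjusted p = 0.072).

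Of the 2 regulators, *Sox10* fell and *Mitf* was lower by less than 2-fold. *Sox10* (NCBI gene 20665, chromosome 15, 79154913 to 79164490) was read with 127, 122, 88, 127 and 234 counts in the control mice and 18, 8, 12 and 25 in the *Supt6*-KO mice. In CPM this was 3.40, 3.34, 2.44, 3.43 and 5.96 against 0.752, 0.384, 0.549 and 0.898. Control 5 stood above the other controls, and the highest *Supt6*-KO mouse was below the lowest control. The fall was 5.66-fold (log2FC -2.50, SE 0.33, adjusted p = 4e-05). *Mitf* (NCBI gene 17342, chromosome 6, 97807002 to 98021360) stood at 15.4, 10.3, 12.6, 10.8 and 12.8 CPM in the controls and at 7.81, 10.0, 9.19 and 10.5 CPM in the *Supt6*-KO mice. The groups overlapped by a single pair, *Supt6*-KO mouse 4 and control 2. With a log2FC of -0.40 (SE 0.16, adjusted p = 0.042) *Mitf* passed the adjusted threshold at less than a 2-fold change. In 8 of the 16 alternatives it did not pass in this direction, and without *Supt6*-KO mouse 2 it lay at the threshold (-0.44, adjusted p = 0.05).

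How far the genes moved depended on the scaling of the libraries, because the TMM factors were 1.20 to 1.31 in the controls and 0.674 to 0.910 in the *Supt6*-KO mice. With library totals instead, the median over all genes tested shifted from -0.072 to -0.759 in log2FC. On that scale *Tyr* (1.55, adjusted p = 0.00024), *Dct* (0.91, adjusted p = 0.00084) and *Mlana* (0.85, adjusted p = 0.002) were still higher. *Tyrp1* (0.47, adjusted p = 0.14) and *Slc45a2* (0.44, adjusted p = 0.27) no longer passed, and *Pmel* (-0.00013) and *Oca2* (-0.05) lay near 0. *Mitf* then was at -1.09 (adjusted p = 0.00037) and *Sox10* at -3.17. Removing the trend of each library on transcript length took *Mlana*, whose longest coding transcript in GENCODE has 906 bases, to 0.35 (adjusted p = 0.12) and *Mitf*, with 4881 bases, to 0.12 (adjusted p = 0.50), while *Tyr*, with 6042 bases, reached 2.99. *Tyr* and *Dct* passed the adjusted threshold as higher in all 16 alternatives, and *Sox10* as lower in all 15 in which it was tested.

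**Figure D2:**
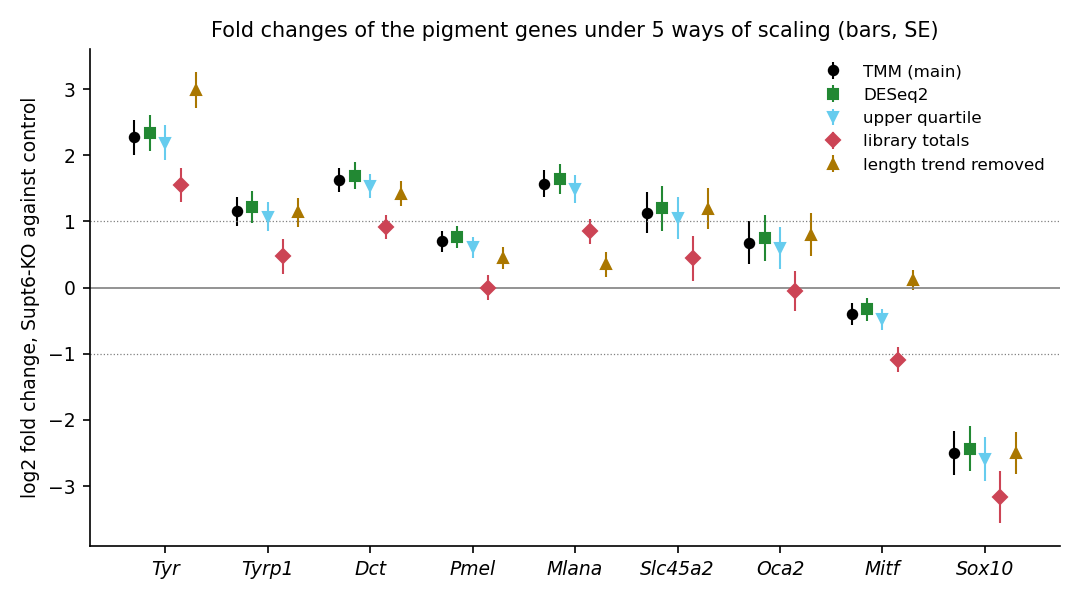
Log2 fold change (vertical axis, *Supt6*-KO against control, bars are standard errors) of the 9 genes under 5 ways of scaling or testing the counts, with dotted lines at a 2-fold change. *Tyr* and *Dct* stay above 0 and *Sox10* stays below under each, whereas *Pmel* and *Oca2* lie at 0 with library totals and *Mitf* changes sign with the length trend removed.

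Ratios of counts within a mouse need no library factor, and were chosen after the values above were seen. They still carry any trend on transcript length: with it removed, *Pmel* (0.45) and *Dct* (1.42) lay closer to *Mitf* (0.12) than in the TMM fit. Ratios with *Pmel* also carry its overlap with *Cdk2*. The ratio of *Tyr* to *Mitf* counts was 0.363, 0.302, 0.319, 0.349 and 0.353 in the controls and 1.45, 2.00, 3.21 and 1.90 in the *Supt6*-KO mice. The ratio of *Dct* to *Mitf* went from 1.66 to 2.04 in the controls (median 1.82) to 5.91 to 9.47 in the *Supt6*-KO mice (median 7.00), and that of *Pmel* to *Mitf* from 0.822 to 1.23 to 2.19 to 2.56. Each of these ratios separated the groups without overlap. Among the pigment genes themselves the rise was uneven. The ratio of *Tyr* to *Pmel* was 0.257 to 0.389 in the controls and 0.660 to 1.26 in the *Supt6*-KO mice, that of *Dct* to *Pmel* was 1.48 to 2.05 against 2.68 to 3.70, and that of *Tyr* to *Dct* was 0.158 to 0.219 against 0.246 to 0.339. *Tyr* therefore gained on *Dct*, and both gained on *Pmel*, in every *Supt6*-KO mouse. *Sox10* lost ground against *Dct*, from 0.115 to 0.229 in the controls to 0.00496 to 0.0163 in the *Supt6*-KO mice.

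Per length, using the length-scaled TPM values that the authors deposited for the controls, the order of the levels was *Mlana* (24.7 ± 4.77 TPM, SD, n = 5), *Dct* (18.5 ± 4.54), *Pmel* (11.9 ± 3.21), *Tyrp1* (8.30 ± 3.19), *Mitf* (4.51 ± 1.00), *Sox10* (2.54 ± 1.26), *Tyr* (1.18 ± 0.343), *Slc45a2* (0.578 ± 0.225) and *Oca2* (0.492 ± 0.175). The ranges of neighbours in this order overlapped over the 5 mice, but within each control the order of the first 7 genes was the same. The first place of *Mlana* rests on a very short length in the authors' TPM, 0.0769 of that behind *Pmel*, where the longest transcripts of GENCODE have a ratio of 0.425. For 3 of the *Supt6*-KO mice no TPM is in the table, so levels were rebuilt from counts and the lengths implied by the controls, which came within 0.641% to 3.00% of the deposited TPM of *Supt6*-KO mouse 4. On that scale *Tyr* moved from the 7th to the 5th place (2.00 ± 0.773 TPM, SD, n = 4), ahead of *Mitf* (1.25 ± 0.470), and *Sox10* from the 6th to the 9th (0.166 ± 0.103). *Tyr* was above *Mitf* in each of the 4 *Supt6*-KO mice, although their ranges overlapped, whereas *Sox10* was below *Oca2* in 2 of the 4. Between the groups the TPM scale gave a different picture from TMM-scaled counts, and also lay below counts scaled to library totals. *Tyr* had the higher mean in *Supt6*-KO mice, *Dct* (20.1 ± 5.83 TPM) and *Mlana* (26.4 ± 5.44) were close to the controls, and *Pmel* (6.96 ± 2.57), *Tyrp1* (6.81 ± 3.79), *Slc45a2* (0.457 ± 0.229) and *Oca2* (0.264 ± 0.0676) had lower means. The ranges of the groups overlapped for each of these 7 genes, whereas for *Mitf* and *Sox10* no *Supt6*-KO mouse reached the lowest control. TPM differences between groups were not tested.

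Mice of a group differed in a shared way. *Supt6*-KO mouse 1 was the lowest of its group in CPM for all 7 genes other than *Mitf* and *Sox10*, and for *Mitf* too. Mouse 3 was the highest for *Tyr*, *Dct*, *Mlana*, *Slc45a2* and *Oca2*. Among the controls, mice 1 and 5 had the highest CPM of *Pmel*, *Tyr*, *Tyrp1*, *Dct*, *Slc45a2* and *Oca2*, and of *Mitf* too. To find genes with a like pattern, the deviations of the 7 genes other than *Mitf* and *Sox10* from their group means were averaged. Each of 13555 other genes with at least 1 CPM was compared with this profile over the 9 mice, by Pearson's r of log2(CPM + 1) deviations. The points share library depth and scaling, and the figures are descriptions. The 10 most alike genes were *Selenbp1* (r = 0.939), *Ccdc191* (0.917), *Selenbp2* (0.915), *Igsf11* (0.913), *Bmp6* (0.908), *Prickle1* (0.905), *Agtr1a* (0.903), *Chsy3* (0.898), *Adamts15* (0.895) and *Ggt5* (0.894). Between the groups, 4 of these 10 genes were called lower (*Ccdc191*, *Igsf11*, *Bmp6* and *Prickle1*), 1 was called higher (*Adamts15*) and 5 were not called. Of all genes tested, 24.9% were called lower and 20.9% higher. *Selenbp1* and *Selenbp2* are close paralogs, and reads may be split between them.

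Of 14 other regulators and receptors of the lineage, 4 were called lower, 0 higher and 10 neither, with a median log2FC of -0.58. In whole skin their RNA need not come from melanocytes: *Kit* is shared with mast cells and *Sox9* with follicle stem cells. *Lef1* is also on the list of shaft genes below. Of all genes tested 24.9% were called lower, so a count of 4 is near the background, and 20.9% were called higher. With library totals the number lower rose to 9, against 6802 of the 16426 genes tested. It fell to 2 once genes with fewer than 10 counts in any library were dropped, against 3073 of 13151 genes. With an unadjusted p under 0.05 and at least a 2-fold change the number higher was also 0, as it was in DESeq2. *Snai2*, named after its value was seen, passed the adjusted threshold as higher at less than 2-fold (log2FC 0.35, adjusted p = 0.031). The most abundant of the 4 called lower were *Tfap2b* (54.4 ± 9.74 CPM, SD, n = 5, against 16.8 ± 3.61 CPM, SD, n = 4, log2FC -1.69, adjusted p = 9.2e-06) and *Sox9* (log2FC -1.79), a factor of follicle stem cells. *Lef1*, a Wnt effector, went from 82 to 293 counts in the controls to 4 to 11 in the *Supt6*-KO mice (log2FC -3.51), and *Foxd3*, a neural crest factor, fell by 1.37 on the log2 scale from 0.802 ± 0.131 CPM. *Kit*, the receptor for stem cell factor on melanocytes and mast cells, was read with 237, 174, 185, 242 and 374 counts in the control mice and 86, 74, 86 and 101 in the *Supt6*-KO mice. Each *Supt6*-KO mouse was below each control in CPM, at less than a 2-fold change (log2FC -0.81, SE 0.21, adjusted p = 0.0051). *Pax3*, which acts on the *Mitf* promoter, had 10 to 24 counts in the controls and 11 to 24 in the *Supt6*-KO mice (log2FC 0.60, adjusted p = 0.11). *Ednrb*, the endothelin receptor of melanoblasts, stood at 5.11 ± 1.90 CPM against 5.29 ± 1.09 CPM (adjusted p = 0.88), and *Mc1r*, the melanocortin receptor that steers cells to eumelanin, at 0.522 ± 0.180 CPM against 0.468 ± 0.174 CPM (adjusted p = 0.68). *Erbb3* (-0.48, adjusted p = 0.0056) and *Tfap2a* (-0.80, adjusted p = 0.0058) were lower at less than a 2-fold change.

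Of 36 genes of melanosome biogenesis, pigment chemistry and transport, 12 were called higher (20.9% of all genes were), 7 lower (24.9% of all genes) and 17 neither, with a median log2FC of 0.54. Most of them serve lysosome-related organelles in other cells too. *Slc24a5*, a melanosomal exchanger with 96 to 137 counts in the controls and 82 to 208 in the *Supt6*-KO mice, had a log2FC of 0.99 (SE 0.23, adjusted p = 0.0024), just short of a call. *Gpr143*, a receptor on the melanosome, had 4 to 10 counts against 3 to 13 (log2FC 0.88, adjusted p = 0.085). Those called higher with the most counts were *Cd63*, which sorts PMEL in melanosomes and is found in endosomes of many cells (154 ± 17.5 CPM against 400.0 ± 43.2 CPM, log2FC 1.38, adjusted p = 4.1e-06), *Rab38*, a carrier GTPase of tyrosinase and TYRP1 (log2FC 1.67), *Bloc1s2*, a subunit of the sorting complex BLOC-1 (2.96), and *Atp7a*, the transporter that loads copper into tyrosinase (1.07). The 7 called lower, named after their values were seen, were *Rab27a*, which with melanophilin ties melanosomes to their actin motor (58.7 ± 5.97 CPM against 21.3 ± 3.32 CPM, log2FC -1.47), *Mlph*, the melanophilin gene (-1.26), *Hps1* (-1.32) and *Hps4* (-1.60), the subunits of BLOC-3, *Lyst* (-1.55), *Cited1* (-1.54) and *Ppargc1a* (-2.52). *Gpnmb*, a PMEL relative also made by macrophages, was lower at less than a 2-fold change (52.2 ± 8.17 CPM against 27.2 ± 4.58 CPM, log2FC -0.94, adjusted p = 0.00017). *Apoe* (-0.66, adjusted p = 0.022) and *Mreg* (0.79, adjusted p = 0.0086) were the most abundant of those not called. With library totals only 2 of the 36 genes were called higher and 13 lower, against 1470 and 6802 of the 16426 genes tested.

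Of 19 genes tested for signals that reach melanocytes from keratinocytes and dermis, 9 were called lower (24.9% of all genes were), 3 higher (20.9% of all genes) and 7 neither, with a median log2FC of -0.94. With library totals 12 were called lower and 0 higher, against 6802 and 1470 of the 16426 genes tested. *Kitl*, the ligand of KIT, stood at 27.6 ± 2.49 CPM against 28.5 ± 2.29 CPM (log2FC 0.05, SE 0.11, adjusted p = 0.73). *Edn3*, a ligand of EDNRB, was read with 111, 114, 110, 110 and 216 counts in the control mice and 35, 21, 17 and 27 in the *Supt6*-KO mice, and each *Supt6*-KO mouse lay below each control (log2FC -1.73, SE 0.28, adjusted p = 0.00016). The agouti gene, listed as *a*, whose product blocks MC1R, had 16, 19, 17, 18 and 14 counts against 22, 43, 34 and 14, with the groups overlapping through *Supt6*-KO mouse 4 (log2FC 1.46, adjusted p = 0.0043). *Corin*, a dermal papilla protease that counteracts agouti, fell from 49.2 ± 18.7 CPM to 5.06 ± 0.819 CPM (log2FC -3.28, adjusted p = 1.8e-06). *Dkk3* (-1.48), *F2rl1*, a keratinocyte receptor tied to melanosome uptake (-1.62), and *Mgrn1* (-1.17) fell as well, while *Atrn* (-0.94, adjusted p = 7.2e-05) and *Adam10* (0.55, adjusted p = 0.001) moved by less than 2-fold.

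*Sox10* and *Mitf* are not made by melanocytes alone, so markers of the other cells that express them are set beside them. Of 18 Schwann cell markers, 13 were called lower (24.9% of all genes were), 1 higher (20.9% of all genes) and 4 neither, with a median log2FC of -1.46. Their summed CPM was 507, 503, 431, 532 and 575 in the controls and 140, 126, 139 and 133 in the *Supt6*-KO mice, with no overlap. None of the 18 was at 0 in every *Supt6*-KO mouse, and the highest mean CPM over the 9 mice was that of *Mbp* (145 ± 9.66 CPM against 38.5 ± 5.60 CPM, log2FC -1.91, adjusted p = 5.4e-07), a myelin protein gene. *S100b* (log2FC -1.15) and *Egr2* (-1.47), a factor of myelinating Schwann cells, also fell, while *Cdh19* (-0.95, adjusted p = 0.0012) was lower at less than a 2-fold change. *Fabp7* was the marker called higher, from 2 to 6 counts to 16 to 26, and was named after its value was seen. *Sox10* thus lay on the same side of 0 as most Schwann cell markers, and the other pigment genes except *Mitf* on the opposite side. The part of Schwann cells in the level of *Sox10* was not tested.

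Of 14 mast cell markers, 2 were called higher, 1 lower and 11 neither, shares below those of all genes (20.9% and 24.9%), with a median log2FC of 0.11 and a summed level of 161 ± 37.9 CPM (SD, n = 5) against 185 ± 22.6 CPM (SD, n = 4). *Mcpt4*, a mast cell chymase with the highest mean CPM over the 9 mice, stood at 44.2 ± 14.7 CPM against 39.4 ± 7.56 CPM (adjusted p = 0.55), and *Cma1* had a log2FC of 0.59 (adjusted p = 0.023). *Fcer1a* (3.74) and *Hdc* (2.00) rose and *Mrgprb2* fell by 1.01 on the log2 scale. The count of 1 lower was 0 in DESeq2 and without controls 2 or 3 or *Supt6*-KO mice 2 or 4. It was 2 with library totals, against 6802 of the 16426 genes tested, and 2 with the length trend removed, against 3412 of 16119 genes. Of 13 macrophage and osteoclast markers, 6 were called higher (20.9% of all genes were), 1 lower and 6 neither. With library totals 3 were called higher and 2 lower, against 1470 and 6802 of the 16426 genes tested. With the length trend removed 3 were called higher and 1 lower, against 2811 and 3412 of 16119 genes. Their summed level went from 531 ± 105 CPM to 1210 ± 224 CPM. *Lyz2*, lysozyme, led that sum (log2FC 2.79), *Mrc1* (1.89) and *C1qb* (1.48) also rose, and *Csf1r* fell by 1.83 on the log2 scale. *Ctsk*, an osteoclast protease gene (0.37, adjusted p = 0.13), was not called. None of the markers in either list was at 0 in every *Supt6*-KO mouse, and the part of mast cells and macrophages in *Mitf*, *Kit* and *Gpnmb* was not tested.

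Follicular melanocytes make pigment while the hair shaft grows, so genes of the growing shaft and its inner root sheath were set beside the pigment genes mouse by mouse. Of 24 such genes, 23 were called lower (24.9% of all genes were), 0 higher (20.9% of all genes) and 1 neither, the last being *Tchh* (log2FC -1.08, adjusted p = 0.32). By an unadjusted p under 0.05 and by DESeq2 the number higher was 0 too. *Krt33b*, named after its values were seen, had 0 counts in control 5 and in every *Supt6*-KO mouse. Under the filter that asks for 10 counts in every mouse, such genes are not tested. There 7 of the list were called lower, against 3073 of 13151 genes. Their summed level was 2970, 409, 1090, 742 and 200 CPM in the controls and 92.4, 117, 125 and 120.0 CPM in the *Supt6*-KO mice. The controls spread widely, with control 1 highest and control 5 lowest, and the sums of all *Supt6*-KO mice were below them. Gene by gene, every *Supt6*-KO mouse lay below every control for 12 of the 24 genes (31.8% of all genes). In control 5, *Gata3* alone stood at 112 CPM. *Krt71*, with the highest mean CPM over the 9 mice, was read with 24564, 1946, 7737, 4970 and 27 counts in the control mice and 12, 11, 6 and 18 in the *Supt6*-KO mice, *Krt25* 11 to 12511 against 0 to 3, and *Krt27* 18 to 12575 against 10 to 31. *Gata3*, an inner root sheath regulator also active in epidermis, fell by 1.87 on the log2 scale. The summed level of the 9 pigment genes was 84.6, 61.7, 63.2, 66.6 and 86.0 CPM in the controls and 110.0, 165, 192 and 168 CPM in the *Supt6*-KO mice. Controls 5 and 1 had the highest sums of pigment genes, and these were the controls with the lowest and the highest sum of shaft genes.

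The tissue itself was checked with 8 keratinocyte markers, of which 1 was called higher (20.9% of all genes were), 4 lower (24.9% of all genes) and 3 neither, and none was at 0 in every *Supt6*-KO mouse. *Krt10* had 14300 ± 730 CPM in the controls and 16400 ± 5760 CPM in the *Supt6*-KO mice, and *Krt14* 3380 ± 304 CPM against 5350 ± 2910 CPM, neither past the threshold (adjusted p = 0.56 and 0.063). *Krt1* rose by a log2FC of 3.65, whereas *Krt15* (-2.65), *Col17a1* (-2.45) and *Trp63* (-1.21) fell. All 9 pigment genes had at least 8 counts in every library, above the floor of 3.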

How the data were processed

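Per the labels and methods, Bowtie2 2.3.4.3 was used by the authors to align reads to mm10, and RSEM 1.3.1 to derive gene values. They deposited estimated counts, not normalized between mice, for all 9 mice, and TPM for 6. The annotation release is not given in the sources used here. About 9% of the estimated counts were not whole and all were rounded. Of 17943 identifiers, 17911 matched a RefSeq gene of GRCm38.p6. Groups and replicate numbers come from the sample titles. Each is taken as 1 mouse.

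The filter kept genes whose counts summed to at least 10. Groups were compared with edgeR 4.0.16 (R 4.3.3; TMM, quasi-likelihood test, no covariates) over 16426 genes with Benjamini-Hochberg adjustment. The standard error is the absolute log2 fold change divided by the square root of F. Alternatives were library totals, DESeq2 1.42.0, factors from the upper quartile, a looser and a stricter filter, a length trend over GENCODE transcripts (17566 genes with a length), a replicate block, and leaving out each mouse. Tables and figures used pandas 2.3.3 and matplotlib 3.10.9 (Python 3.11.15).

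The 9 genes and the marker lists were chosen with earlier results of these data known. Named genes are *Supt6*, the 9 genes, in each list up to 4 called and 2 uncalled genes with the highest mean CPM, 10 further genes fixed by name (*Kit*, *Pax3*, *Mc1r*, *Kitl*, *Ednrb*, *Edn3*, agouti, *Gpnmb*, *Gpr143* and *Slc24a5*), and the 10 most alike genes. *Dkk1* was under the filter, *Krt85* was not analysed here, and a few genes that the rule names are not reported here. The floor covers counting error only, whereas the SDs and standard errors include the spread between mice.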

Additional observations from a re-analysis of the deposited data

Results flagged for a closer look

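In 144 groups of 4 or 5 mice (named genes and summed lists), 10 contained a mouse set well apart from its group, against about 7.2 that chance gives (1 in 20). In control 5, *Sox10* stood at 5.96 CPM (others 2.44 to 3.43), *Edn3* at 5.50 CPM (others 2.97 to 3.12) and *Mrc1* at 42.8 CPM (others 12.5 to 19.0). In control 1, *Lef1* stood at 7.84 CPM (others 2.24 to 3.35) and *Tchh* at 327 CPM (others 3.08 to 83.0). *Supt6*-KO mouse 1 had the lowest *Kitl*, at 25.0 CPM (others 29.4 to 29.7). *Supt6*-KO mouse 2 had the lowest *C1qb*, at 46.8 CPM (others 62.6 to 65.5), and the lowest sum of mast cell markers, at 152 CPM (others 194 to 201). *Supt6*-KO mouse 3 had the highest *Gpnmb*, at 34.1 CPM (others 24.4 to 25.4), and *Supt6*-KO mouse 4 the lowest *Krt10*, at 7770 CPM (others 18200 to 19800). Of the 9 pigment genes, *Sox10* was the only one with such a mouse, and without control 5 its log2 fold change was -2.26.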

How the results depend on the processing

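The direction and side of the threshold held in every alternative for *Supt6* (-2.26 to -0.80), *Tyr* (1.55 to 2.99), *Dct* (0.91 to 1.78) and *Sox10* (-3.17 to -2.26), which the stricter filter (no mouse under 10 counts) leaves untested. With library totals, *Pmel* was at -0.00013 and *Oca2* at -0.05, turned in sign, and *Tyrp1* (0.47) and *Slc45a2* (0.44) no longer passed. With the length trend removed *Mitf* turned to 0.12, *Mlana* lost the threshold at 0.35 and *Oca2* passed it at 0.80. *Mitf* also lost it in DESeq2 (-0.33) and *Oca2* passed there (0.75). With each mouse left out in turn, *Mitf* ranged from -0.46 to -0.30. It lost the threshold without controls 1, 3 or 5 or *Supt6*-KO mice 1 or 3, and lay at it without *Supt6*-KO mouse 2 (adjusted p = 0.05 from edgeR). *Oca2* ranged from 0.44 to 0.86, passing without *Supt6*-KO mice 1 or 4.

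The number of pigment genes called higher was 5, with 4 to 5 when a mouse was left out (*Tyrp1* fell short of 2-fold at 0.97 without *Supt6*-KO mouse 4, and *Slc45a2* at 0.98 without control 2 and 0.93 without *Supt6*-KO mouse 3), and 1 with library totals. The number called lower was 1, 2 with library totals, and 0 under the stricter filter, which drops *Sox10*. Over all genes, library totals gave 1470 higher and 6802 lower. Beyond the loss of *Sox10* to the stricter filter, the cause of these shifts was not tested. Of 272 counts for the other lists, 255 stayed within 1.5 times and 17 moved, 7 of them with library totals. Same-numbered mice had correlations of -0.018, 0.235, 0.217 and 0.053 (mean 0.122, against -0.023 over the 16 other pairings), too uneven to pair the mice, and 1 of 4 *Supt6*-KO mice was most like its own number. In the fit with the replicate block *Mitf* was at -0.37 (adjusted p = 0.12 from edgeR). *Slc45a2* and *Oca2* rest on 19 to 69 counts a mouse, and what depth adds to their spread was not tested.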
